A study of Mus musculus with 8 samples.

Results

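The nuclear genes of oxidative phosphorylation were followed in cultured mouse hepatic stellate cells from mice without the interleukin-15 receptor alpha chain and in control cells. Members were all probes whose platform symbol begins with Ndufa, Ndufb, Ndufc, Ndufs, Ndufv, Sdh (Sdha to Sdhd), Uqcr, Cox4 to Cox8 or Atp5, with Atp5c1 left out. These prefixes take in 88 of 16594 gene symbols on the array, with 110 of its 25697 probes. Of these, 52 probes (39 genes) belong to complex I, 10 (7) to complex II, 9 (8) to complex III, 22 (19) to complex IV and 17 (15) to complex V. These counts include 9 assembly factors, Ndufaf and Sdhaf genes counted under complexes I and II, and Ndufs5-ps, a pseudogene symbol. Ndufa4, first assigned to complex I, was placed in complex IV, of which it is now counted a subunit. Sdha was not analysed here.

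The design holds 1 comparison, 4 IL15Ra-knockout samples against 4 wild-type control samples, each on 1 Illumina MouseRef-8 v2 bead array. Both groups came from B6/129 mice of 6 weeks that are labelled female. The labels name no promoter or cell type that would restrict the knockout. Stellate cells, the vitamin A-storing pericytes of the liver, were obtained by pronase and collagenase perfusion and a Percoll gradient, grown in medium with 20% fetal bovine serum and harvested at passage 0. Whether samples within a group are from different mice is not labelled, so a p-value here covers the spread among 4 samples that may differ only technically. In such whole cultures, fewer cells of a type and less RNA per cell cannot be told apart.

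Oxidative phosphorylation takes place in the inner mitochondrial membrane. Complex I oxidises NADH, complex II oxidises succinate, and both pass electrons through ubiquinone to complex III and then through cytochrome c to complex IV, which reduces oxygen. The protons pumped by complexes I, III and IV drive complex V, the ATP synthase. Most subunits are encoded in the nucleus and imported, a small set is encoded by mitochondrial DNA, and dedicated assembly factors build the complexes. The transcription factor NRF1, factors of the ETS family such as GABP (NRF-2) and YY1 are known to bind promoters of many of these nuclear genes.

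Since these factors bind at gene starts, the members' promoters were searched for 3 motifs, on both strands, in the 250 bases before and 50 bases after each RefSeq gene start (GRCm38.p6). A promoter was found for 73 of the 88 genes. The NRF1 motif GCGCATGCG was present in 9 of 73 genes (12.3%), against 4.26% of 6039 genes with a kept probe and 1.95% of all 27025 genes in the table. The ETS core CCGGAAG was present in 20 of the 73 (27.4%), against 20.7% and 9.93%. The YY1 motif AAGATGGCG was present in 7 of the 73 (9.59%), against 3.76% and 1.64%. Matches of different motifs shared bases in 0 of these genes. Atp5k, Atp5l, Cox6a1 and Uqcr11 carried both NRF1 and ETS matches, and Atp5j both ETS and YY1 matches. By complex, assembly factors included, the ETS core stood in 5 of 6 promoters of complex II and in 5 of 35 of complex I. In complex II it stood at the subunit genes Sdhb and Sdhd and at the assembly factors Sdhaf1, Sdhaf2 and Sdhaf3. A match describes letters in a window and shows no binding. For the 6 genes with an NRF1 match wholly before the start, 1 match each is shown. The values of Atp5g2, Atp5k, Atp5l and Cox6a1 are described in detail below, with Ndufa8 and Ndufaf4 beside them for comparison. At Atp5g2, Atp5k, Cox6a1 and Ndufaf4 an overlapping match on the opposite strand is not marked. The ETS matches before the start are shown because most complex II promoters carry that core. Capitals mark the motif, each stretch is written 5′ to 3′ on the strand of the gene, and CTTCCGG is the ETS core read on the opposite strand, as CGCATGCGC is for NRF1.
Atp5g2, chr15:102671056-102671114, minus strand: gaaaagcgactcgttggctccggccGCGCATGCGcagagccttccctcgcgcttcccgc
Atp5k, chr5:108434416-108434474, minus strand: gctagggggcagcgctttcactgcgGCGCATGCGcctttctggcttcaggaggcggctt
Atp5l, chr9:44920950-44920992, minus strand: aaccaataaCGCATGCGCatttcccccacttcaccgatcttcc
Cox6a1, chr5:115349087-115349145, minus strand: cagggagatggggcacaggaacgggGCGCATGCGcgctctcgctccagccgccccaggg
Ndufa8, chr2:36049339-36049372, minus strand: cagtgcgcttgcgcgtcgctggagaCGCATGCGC
Ndufaf4, chr4:24897945-24898003, plus strand: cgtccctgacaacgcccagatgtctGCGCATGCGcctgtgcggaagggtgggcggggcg
Sdhaf2, chr19:10525336-10525392, minus strand: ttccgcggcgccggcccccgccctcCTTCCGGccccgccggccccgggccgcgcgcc
Sdhaf3, chr6:6955866-6955922, plus strand: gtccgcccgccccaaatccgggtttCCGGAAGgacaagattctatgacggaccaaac
Sdhd, chr9:50603864-50603920, minus strand: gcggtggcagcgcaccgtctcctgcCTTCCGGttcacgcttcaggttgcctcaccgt

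The arrays differed in a way that genotype does not describe. Knockout 1 (7765 probes above background), knockout 4 (7830) and control 3 (6760) had fewer detected probes than the other 5 arrays, which had 9135 to 10516. These 3 low-detection arrays lay apart on the first principal component, with 78.2% of the variance. All 4 probes of Il15ra, the targeted gene, were at background on every array, with a lowest detection p of 0.178, so they check nothing about the genotype. Probes for 3 Y-linked genes were above background on all 8 arrays, against the label female. Some results that rest on the 3 low-detection arrays are also given without them. Other values are from all 8 arrays unless stated, and may also rest on these 3.

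A probe was kept when its detection p was below 0.05 on 4 or more arrays, which left 93 member probes for 79 genes, and 80 of them were detected on all 8 arrays. They fall into 45 probes of complex I, 9 of complex II, 8 of complex III, 17 of complex IV and 14 of complex V. The genes without a kept probe were Ndufs1 and Ndufaf7 of complex I, Uqcrq of complex III, Cox4i2, Cox7b2, Cox8b and Cox8c of complex IV, and Atp5o and Atp5pb of complex V. Among the dropped probes, 13 were above background on no array. Ndufs1, Uqcrq, Atp5o and Atp5pb encode regular subunits of their complexes, and a probe at background gives no measure of the gene here.

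No member passed the main test of knockout against control cells, the limma fit with Benjamini-Hochberg adjustment over all 9433 kept probes. At an adjusted p under 0.05, 0 of 93 member probes were called, against 0.53% of all kept probes, and the lowest adjusted p of a member was 0.452. An unadjusted p under 0.05 was reached by 2 of 93 (2.15%, against 6.31% of all kept probes), Cox6c and Atp5g2. The groups did not overlap at 2 of 93 (2.15%, against 5.02%), Cox6c and Cox7a1. That count was 10 of 93 without control 3 (10.8%, against 20.2%), 6 without knockout 1 (against 7.23% of all kept probes), 5 without knockout 2 (against 7.56%) and 3 without control 2 (against 5.65%). Without control 3, 28 of 93 also had an unadjusted p under 0.05 (30.1%, against 23.8%), with 0 called. Weighting the arrays by their estimated quality called 38 of 93 (40.9%, against 38.5% of all kept probes), with weights whose estimation stopped before it converged. The difference was above 0 at 45 probes and below 0 at 48 (51.6%, against 46.8% of all kept probes), with a median of -0.03 log2 units beside 0.03 over all kept probes. By complex, assembly factors included, the median difference was -0.03 in complex I, -0.05 in II, -0.01 in III, 0.09 in IV and 0.01 in V. The 95% interval of the difference stayed within 1 log2 unit of 0 for 40 of 93 probes (43.0%, against 39.7% of all kept probes), and within 0.5 units for 15 (16.1%, against 5.92%). For the other 53 probes a change of 2-fold was within the interval.

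**Figure D1:**
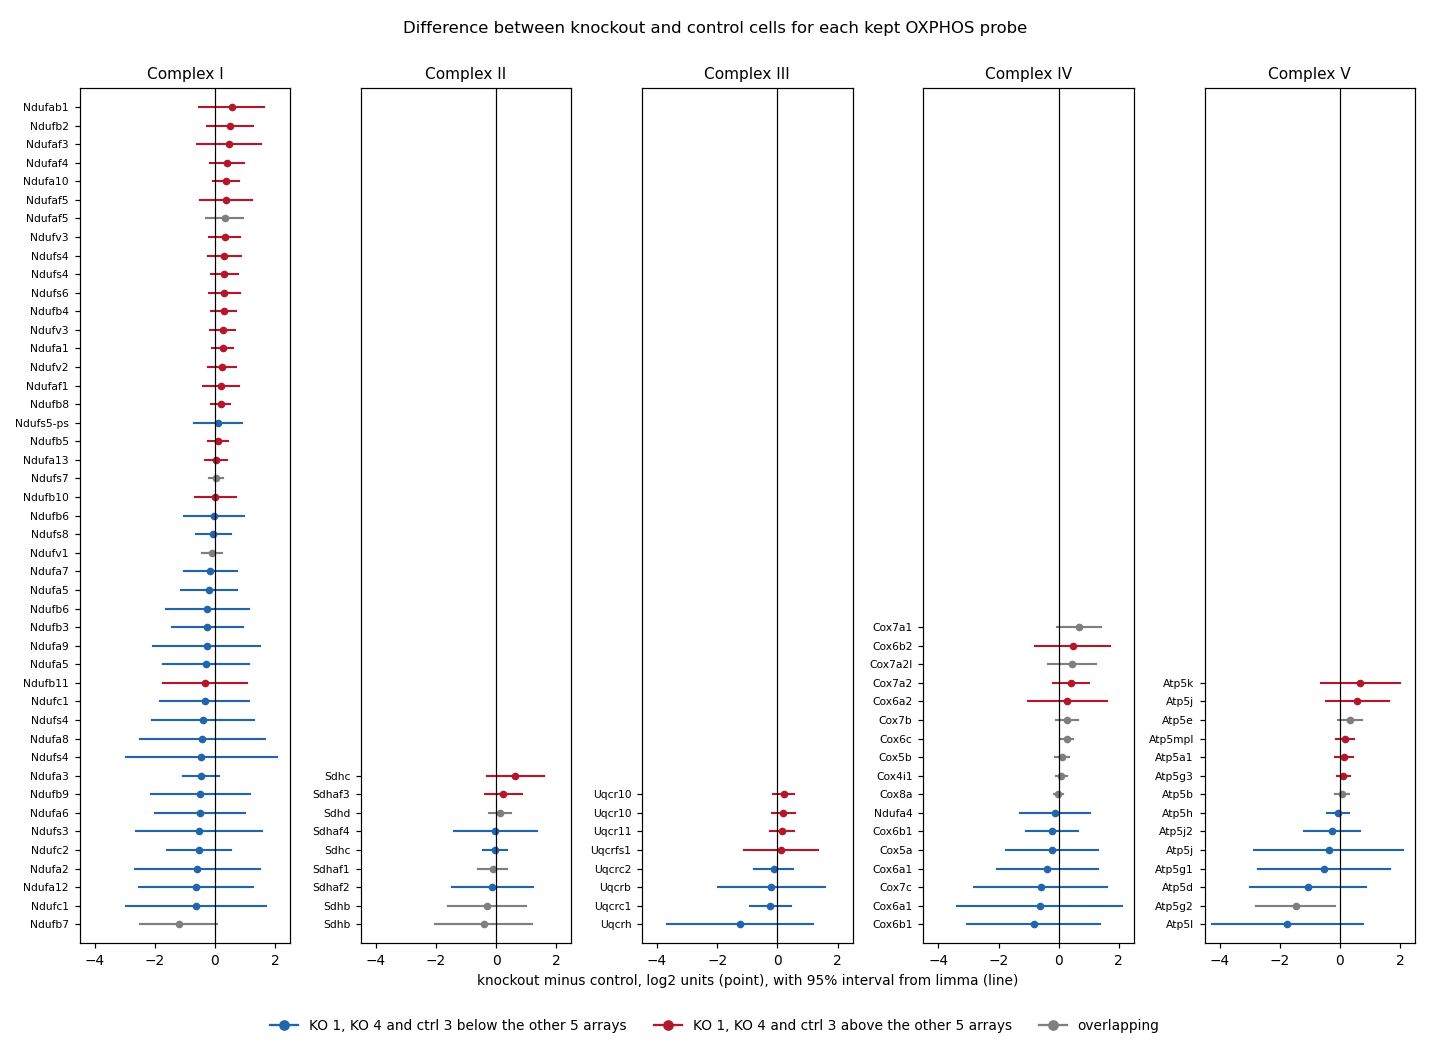
Difference between knockout and control arrays for each of the 93 kept probes, by complex, in log2 units (points), with the 95% interval from limma (lines), and coloured by where the 3 low-detection arrays lay. Only the intervals of Cox6c and Atp5g2 leave out 0, and blue probes sit mostly left of 0 with wide intervals.

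Complex IV, cytochrome c oxidase, held both probes at which the groups did not overlap. They were 2 of its 17 kept probes, against 5.02% of all kept probes. Cox6c, a small structural subunit, read 13.94, 13.68, 13.81 and 13.82 on knockout arrays 1 to 4 and 13.59, 13.55, 13.62 and 13.40 on control arrays 1 to 4, as log2 signals. Every knockout value was above every control value, although the gap between the nearest values was small. The difference was 0.27 log2 units (95% interval 0.07 to 0.47, 1.21-fold, limma adjusted p = 0.452). Cox7a1, the isoform of subunit 7a typical of heart and skeletal muscle, read 8.09, 8.08, 8.39 and 8.47 on the knockout and 7.77, 7.68, 8.03 and 6.82 on the control arrays. The groups again lay apart, with control 4 well below the other controls. The difference was 0.68 (-0.06 to 1.42, 1.60-fold, limma adjusted p = 0.860). Without the 3 low-detection arrays it was 0.81 for Cox7a1 and 0.23 for Cox6c, with limma adjusted p-values of 0.397 and 0.387.

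The isoform pairs of complex IV were described further because each pair has a ubiquitous and a tissue-restricted form. Cox7a2, the ubiquitous partner of Cox7a1, was at 11.09 ± 0.42 in knockout and 10.68 ± 0.38 in control arrays (SD, n = 4 each), with overlapping groups. Cox7a2l, which links complexes III and IV in supercomplexes, was at 7.38 ± 0.53 and 6.93 ± 0.34. Cox4i1, the ubiquitous isoform of subunit 4, read 13.45 to 13.58 in knockout and 13.38 to 13.52 in control arrays, and its difference of 0.09 had a 95% interval of -0.08 to 0.27. Cox4i2, the isoform known from lung and from hypoxia, was above background on 1 knockout array alone. Cox8a, the ubiquitous isoform of subunit 8, was the steadiest member, from 13.92 to 14.04 over all 8 arrays, with a difference of -0.01 (-0.17 to 0.15). Cox8b and Cox8c, its muscle and testis isoforms, and Cox7b2, the testis isoform of subunit 7b, were not kept.

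Subunits 6a and 6b showed a different picture within complex IV. Cox6a1, the ubiquitous isoform, has 2 kept probes, and one of them had the widest range of all members, 5.43 log2 units, reading 7.85, 11.01, 10.36 and 8.46 on the knockout and 11.62, 10.60, 6.28 and 11.71 on the control arrays. The 3 low-detection arrays were the 3 lowest, and the groups overlapped. Cox6a2, its heart and muscle isoform, read 8.97, 7.18, 7.59 and 8.26 on the knockout and 7.55, 7.82, 9.01 and 6.48 on the control arrays, with the same 3 arrays now the highest. Cox6b1, the ubiquitous isoform of subunit 6b, and Cox6b2, its testis isoform, split the same way. The mean of the 3 low-detection arrays minus that of the other 5 was -1.08 and -2.78 log2 units at the 2 probes of Cox6b1 and 1.49 at Cox6b2. Without the 3 low-detection arrays the genotype differences were -0.62 and -0.26 at Cox6a1 and 0.10 at Cox6a2. They were -0.05 and -0.96 at the Cox6b1 probes, in the order just given, and 0.11 at Cox6b2. With all 8 arrays, the limma adjusted p-values of these 6 probes were between 0.913 and 0.929. Ndufa4 was at 12.49 ± 1.01 and 12.60 ± 0.75, with knockout 1 and control 3 lowest.

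In complex V, the c ring of the ATP synthase is built from 1 protein that 3 genes encode, and their probes are given side by side. Atp5g2 read 7.39, 8.31, 7.50 and 7.30 on the knockout and 9.52, 8.22, 8.01 and 10.64 on the control arrays. Knockout 1, 3 and 4 were below every control, while knockout 2 was above controls 2 and 3. The difference was -1.48 (95% interval -2.78 to -0.17, 2.78-fold, limma adjusted p = 0.619). Atp5g1 read from 8.73 to 12.52 in knockout and from 9.22 to 12.64 in control arrays, with a difference of -0.53 (-2.73 to 1.68), and the 3 low-detection arrays were its lowest. Atp5g3 read from 13.80 to 14.09 and from 13.74 to 13.99, with a difference of 0.11 (-0.10 to 0.32). Without the 3 low-detection arrays the differences were -1.56 for Atp5g2, 0.06 for Atp5g1 and 0.08 for Atp5g3, of which Atp5g1 changed sign.

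The largest difference of any member was that of Atp5l, subunit g, which lies in the membrane part of the synthase. It read 6.95, 11.29, 9.79 and 7.58 on the knockout and 11.57, 11.18, 7.95 and 11.93 on the control arrays. The 3 lowest values were those of the 3 low-detection arrays, 2 of which are knockout arrays, and the groups overlapped. The difference was -1.76 (-4.27 to 0.75, limma adjusted p = 0.913), and it was -1.02 (-1.95 to -0.09, limma adjusted p = 0.360) without those 3 arrays. With detected-probe counts as a covariate it was -1.53, with a limma adjusted p of 0.00256. That fit called 3 of 93 members, all lower (3.23%, against 7.1% of all kept probes), Atp5l, Uqcrh and Ndufb7.

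The catalytic head of the synthase had narrow intervals around 0. Atp5b, the catalytic beta subunit, had a difference of 0.07 (-0.16 to 0.29) and Atp5a1, the alpha subunit, of 0.12 (-0.18 to 0.42). Atp5d, the delta subunit of the central stalk, was dim and ranged from 4.79 to 9.06, with a difference of -1.06 (-2.99 to 0.88). Atp5e, the epsilon subunit, was at 12.20 ± 0.29 in knockout and 11.85 ± 0.22 in control arrays. Its difference of 0.34 had a 95% interval of -0.07 to 0.75. Atp5k, subunit e, had the highest positive difference of the complex, 0.68 (-0.64 to 1.99), and there the 3 low-detection arrays were the highest, at 10.58, 9.84 and 10.08 against 7.96 to 8.78 on the others.

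**Figure D2:**
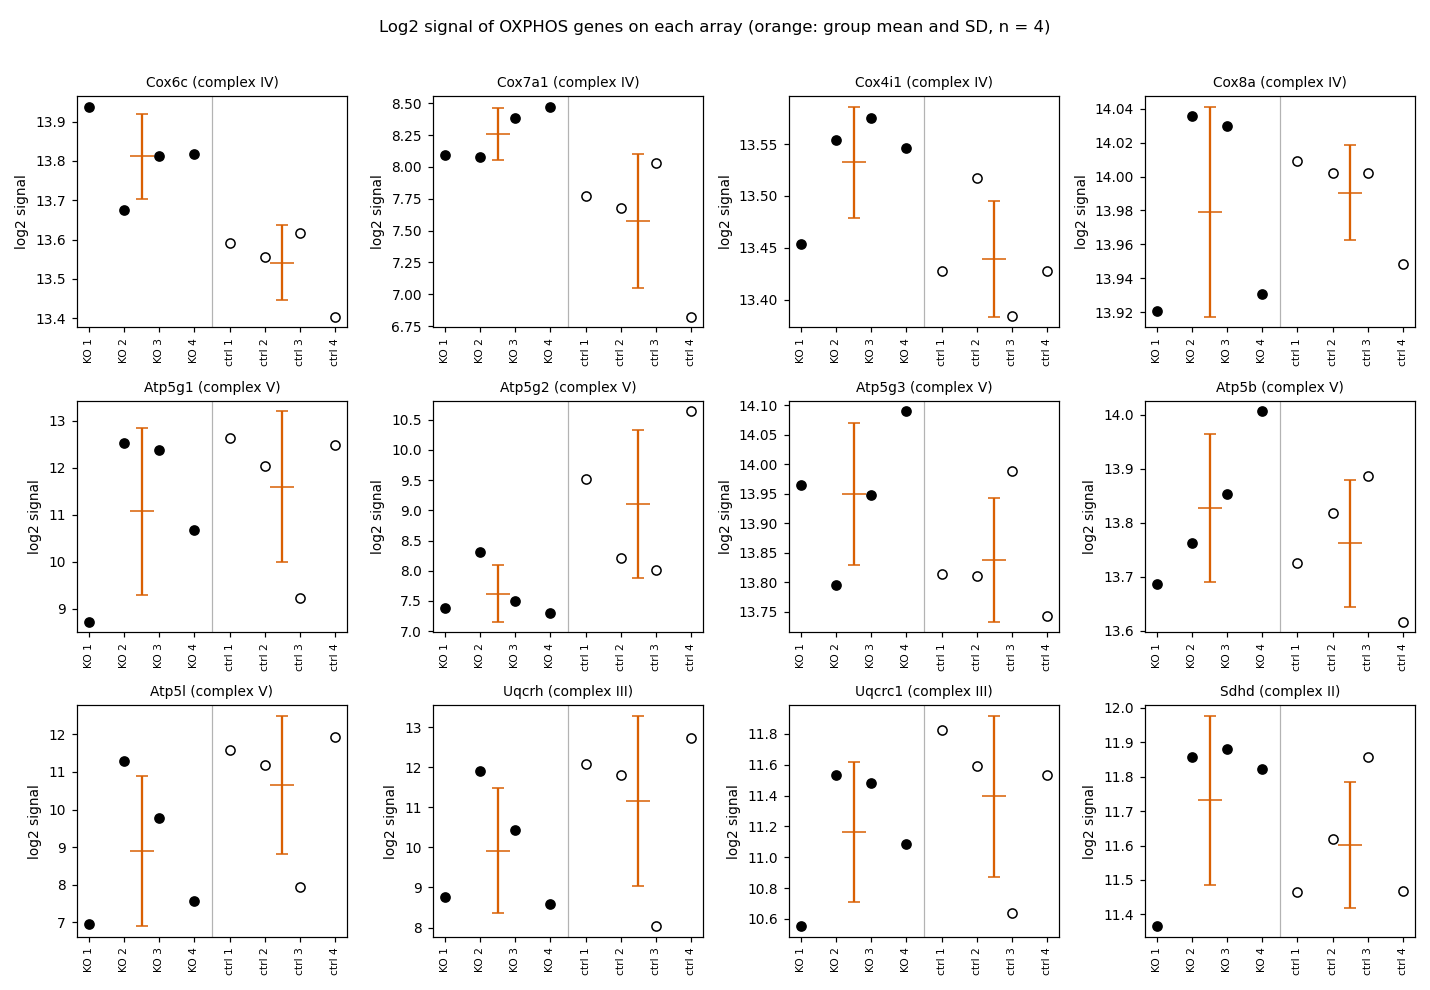
Log2 signal of 12 member genes on each array, knockout filled and control open, with the group mean and SD in orange (n = 4 each) and an axis of its own for each gene. Cox6c and Cox7a1 show groups that do not overlap, and Atp5l, Uqcrh and Atp5g1 have knockout 1, knockout 4 and control 3 lowest.

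In complex I, 0 of 45 probes had an unadjusted p under 0.05 (against 6.31% of all kept probes). Groups lay apart at 0 of the 45 (against 5.02%). Ndufb7, an accessory subunit, had the largest difference, -1.21 (-2.50 to 0.08, limma adjusted p = 0.841). It read 4.84, 6.50, 4.98 and 4.69 on the knockout and 7.13, 6.15, 5.17 and 7.40 on the control arrays, and was above background on 1 knockout and 3 control arrays. Knockout 2 lay above controls 2 and 3, so the groups overlapped. With detected-probe counts as a covariate, the difference was -1.10 and was called, with a limma adjusted p of 0.0242. Without the 3 low-detection arrays it was -1.15, with a limma adjusted p of 0.420.

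The core subunits of complex I, among which are those that carry its flavin and iron-sulfur clusters, had differences from -0.52 to 0.22 at 5 probes. Ndufs7, which holds the cluster next to ubiquinone, read 12.23 to 12.26 in knockout and 12.12 to 12.31 in control arrays, a difference of 0.04 (-0.20 to 0.27). Ndufv1, the flavoprotein that binds NADH, had a difference of -0.10 (-0.42 to 0.23), Ndufv2 beside it 0.22 (-0.25 to 0.69) and Ndufs8 -0.06 (-0.64 to 0.52). Ndufs3, another core subunit, ran from 6.19 on control 3 to 10.62 on control 4, so that its difference of -0.52 had an interval of -2.61 to 1.57. Of the 35 accessory-subunit probes of complexes I and IV that begin with Nduf, 14 were above 0 and 21 below, with a median of -0.20. Without the 3 low-detection arrays, 18 of the 35 were above 0 and 17 below, with a median of 0.03. With all 8 arrays, Ndufa10 (0.38, -0.05 to 0.81), Ndufa1 (0.26, -0.09 to 0.60) and Ndufa3 (-0.46, -1.05 to 0.12) had the smallest p-values of the 35 beside Ndufb7. Their limma adjusted p-values were from 0.841 to 0.913.

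Assembly factors are not part of the finished enzymes. Of the 9 probes kept for them, 6 had a difference above 0, with a median of 0.24. None was called (against 0.53% of all kept probes) or had an unadjusted p under 0.05 (against 6.31%). Ndufaf4 was at 10.13 ± 0.36 in knockout and 9.73 ± 0.33 in control arrays, Ndufaf1 at 10.33 ± 0.40 and 10.13 ± 0.36, and Ndufaf3 at 8.84 ± 0.68 and 8.36 ± 0.78. At these 3 genes the 3 low-detection arrays had the 3 highest values. Sdhaf2, needed to attach flavin to Sdha, had a difference of -0.13 (-1.46 to 1.21), and Sdhaf1, Sdhaf3 and Sdhaf4 had differences of -0.12, 0.24 and -0.03. Without the 3 low-detection arrays, 7 of the 9 assembly-factor probes were above 0 and 2 below, with a median of 0.10.

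Complex II, succinate dehydrogenase, is the only one of the 5 with no subunit encoded by mitochondrial DNA. Sdhb, its iron-sulfur subunit, has 2 kept probes with differences of -0.41 (-2.03 to 1.20) and -0.29 (-1.59 to 1.00). Sdhd, a membrane anchor, read 11.37, 11.86, 11.88 and 11.82 on the knockout and 11.46, 11.62, 11.86 and 11.47 on the control arrays. Knockout 1 stood below the other 3 knockout arrays, and without the 3 low-detection arrays the difference of 0.13 became 0.35 (0.06 to 0.65, limma adjusted p = 0.314). Sdhc, the other anchor, has 2 kept probes with differences of opposite sign, 0.64 and -0.05. The first probe was dim, at 6.36 in knockout and 5.72 in control arrays, and above background on 4 knockout and 2 control arrays. The second was at 10.40 and 10.45 and above background on all 8 arrays.

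Complex III passes electrons from ubiquinone to cytochrome c. Uqcrh, its hinge protein, had the largest difference, -1.24 (-3.66 to 1.19, limma adjusted p = 0.913), reading 8.76, 11.90, 10.44 and 8.59 on the knockout and 12.07, 11.81, 8.03 and 12.72 on the control arrays. The 3 lowest values were again those of the 3 low-detection arrays. Without them the difference was -1.03 (-1.97 to -0.09, limma adjusted p = 0.366), and with detected-probe counts as a covariate it was -1.01 and called, with a limma adjusted p of 0.0127. Uqcrc1, a core protein, was at 11.16 ± 0.45 and 11.39 ± 0.52. The small subunits Uqcr10, at both of its probes, and Uqcr11 had differences of 0.15 to 0.20, and their 95% intervals reached at most 0.57. Uqcrfs1, the Rieske iron-sulfur protein, had a difference of 0.11 (-1.12 to 1.34).

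The members followed the 3 low-detection arrays in either direction. At 41 of 93 probes (44.1%, against 30.2% of all kept probes) all 3 of these arrays were below all 5 others, at 34 (36.6%, against 36.1%) all 3 were above, and at 18 the 2 sets overlapped. Members in the first set included Atp5l, Atp5j, Ndufc1, Uqcrh, Cox7c and Atp5g1, and members in the second Atp5k, Ndufab1, Cox6a2, Cox6b2 and Uqcrfs1. The mean of the 3 minus the mean of the other 5 arrays ran from -3.66 log2 units for Atp5l to 1.75 for Atp5k. The range over the 8 arrays was above 2 log2 units at 42 of 93 members (45.2%, against 31.6% of all kept probes). The 14 members with a mean above 13 had a median range of 0.58, against 2.07 for the other 79. Their values reached 14.19, near the highest value of any probe, 14.24, and the part of this upper end of the scale in their narrow ranges was not tested.

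**Figure D3:**
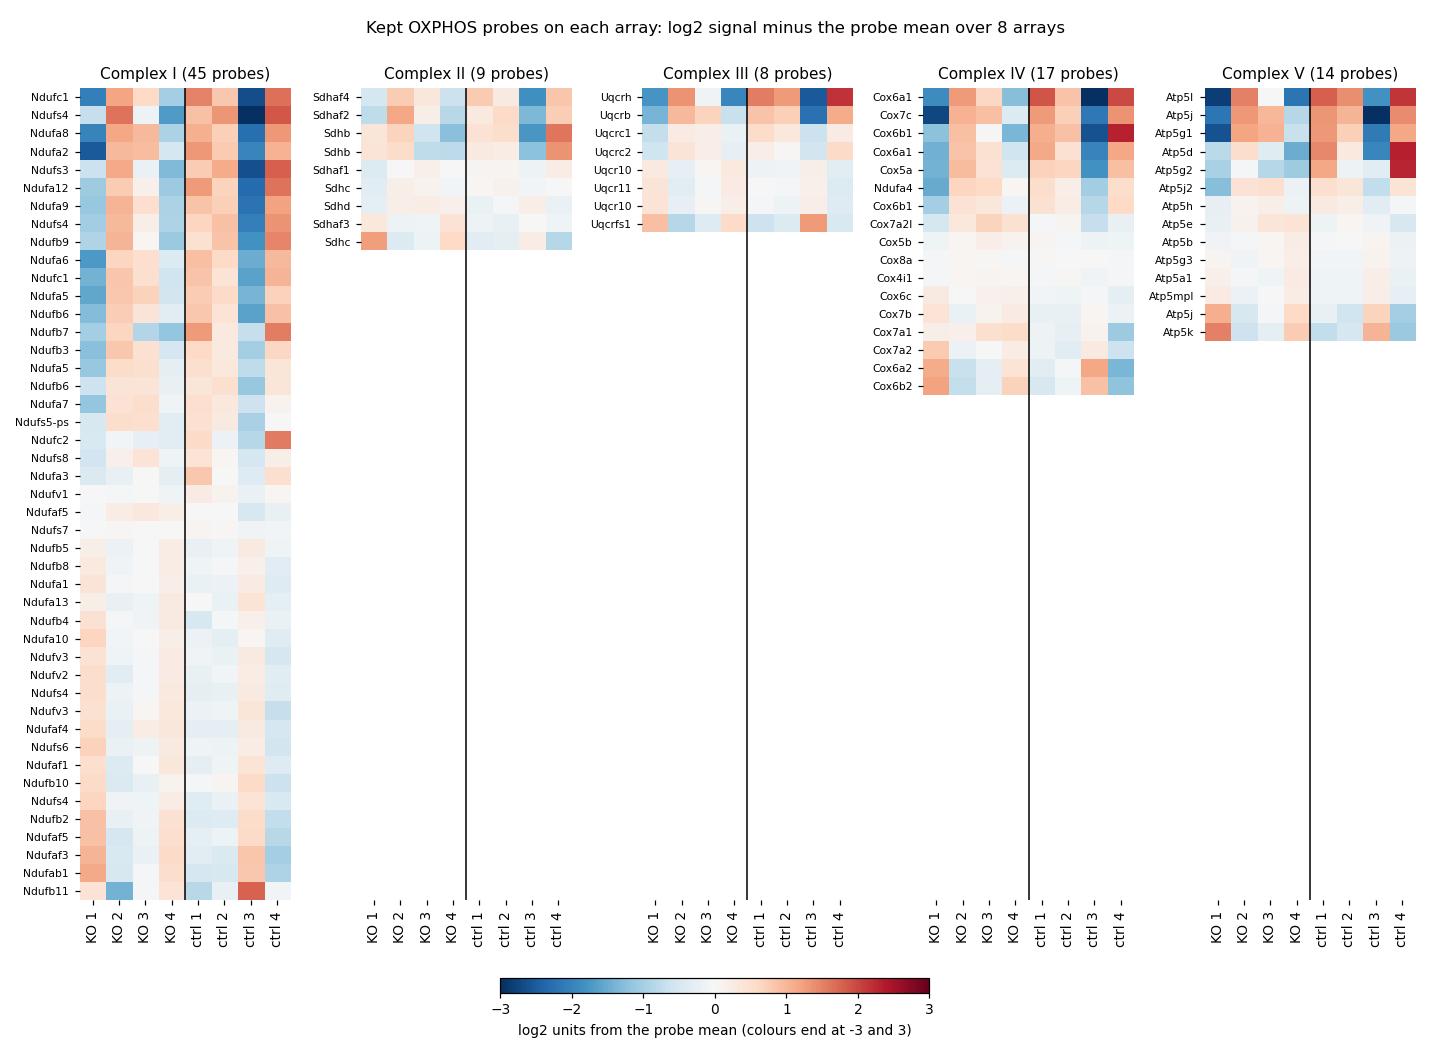
Each kept member probe on each array, as log2 signal minus its mean over the 8 arrays, by complex and sorted by the mean of knockout 1, knockout 4 and control 3 minus that of the other 5, with control arrays right of the line. Blue in knockout 1, knockout 4 and control 3 fills the upper rows and pale red the lower ones in each complex.

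Since 2 of those 3 arrays are knockout arrays, the array pattern and the genotype difference share values. Of the 41 members that were below in the 3 arrays, 40 had a negative genotype difference, as had 86.6% of all kept probes in that class, and of the 34 above, 33 had a positive one, as had 88.0% of all kept probes in that class. On the 5 other arrays, 2 knockout against 3 control, the members of the first class had 28 negative and 13 positive differences, with the median going from -0.35 to -0.10, beside 68.9% negative among all kept probes of that class. Those of the second had 29 positive and 5 negative, with the median going from 0.27 to 0.11, beside 25.1% negative among all kept probes of that class. Over all 93 members, 54 differences were positive and 39 negative on these 5 arrays, and the median was 0.06 beside 0.04 for all kept probes. None of the 93 was called there (1.79% of all kept probes were), 9 had an unadjusted p under 0.05 (9.68%, against 12.0%), and 19 had groups that lay apart (20.4%, against 30.2%). The interval was within 1 log2 unit of 0 for 72 of 93, and the share over all kept probes was not taken here. What set the 3 arrays apart was not tested.

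**Figure D4:**
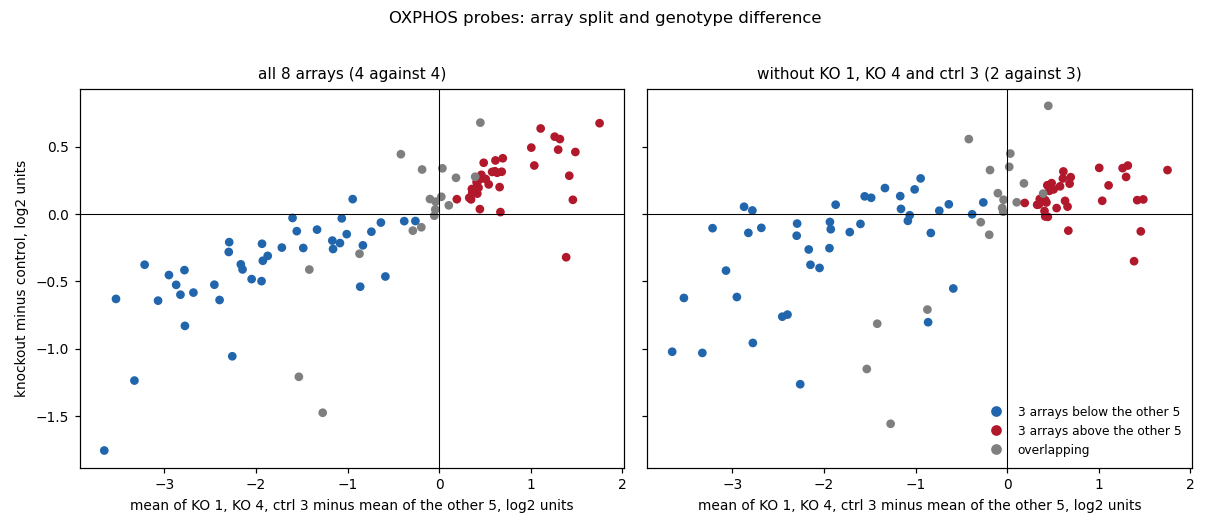
Genotype difference of each kept member probe (vertical, log2 units) against the mean of knockout 1, knockout 4 and control 3 minus the mean of the other 5 arrays (horizontal), with all 8 arrays on the left and with the 5 other arrays on the right. On the left the points lie along a rising band, which is partly built in because 2 of the 3 arrays are knockout arrays, and on the right most points lie within 0.5 of 0.

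Different probes of the same gene did not always move together. At least 2 probes were kept for 12 genes, with 26 probes in all, and at 3 of the 12 (Ndufs4, Atp5j and Sdhc) the genotype differences had opposite signs. Ndufs4, an accessory subunit of the peripheral arm of complex I, has 4 kept probes. ILMN_1234521 read 7.78, 10.10, 8.30 and 6.76 on the knockout and 9.35, 9.77, 5.31 and 10.32 on the control arrays. ILMN_2640944 read 12.72, 12.04, 12.15 and 12.47 on the knockout and 11.89, 11.95, 12.46 and 11.82 on the control arrays. Where the first was lowest, on control 3 and knockout 4, the second was among its highest. In the 3 low-detection arrays, the mean minus that of the other 5 was -2.95 and -2.15 log2 units at ILMN_1234521 and ILMN_2900025 and 0.58 and 0.68 at ILMN_2640944 and ILMN_2663694.

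Atp5j, coupling factor 6 of the synthase, showed the widest disagreement. ILMN_2962632 read 9.06, 12.52, 12.23 and 10.37 on the knockout and 12.55, 12.24, 8.24 and 12.65 on the control arrays, while ILMN_2632890 read 7.40, 5.83, 6.26 and 6.92 and 6.10, 5.72, 6.99 and 5.29. In the 3 low-detection arrays, the mean minus that of the other 5 was -3.22 log2 units at the first probe and 1.26 at the second. Their genotype differences were -0.38 (-2.84 to 2.09) and 0.58 (-0.47 to 1.62). At Sdhc the probes, of which the first was dim, differed by genotype with 0.64 (-0.30 to 1.57) and -0.05 (-0.45 to 0.35). In the 3 arrays they differed with 1.11 and -0.26. At Ndufaf5 the genotype differences had the same sign, 0.36 and 0.33, while the values in the 3 arrays were 1.04 and -0.19. The other 8 of the 12 genes had probes that moved the same way in both respects, among them Uqcr10, Ndufv3, Cox6a1 and Cox6b1. Without the 3 low-detection arrays the differences were -0.10 and 0.34 at Atp5j, -0.62, -0.38, 0.21 and 0.23 at Ndufs4, and 0.21 and 0.09 at Sdhc. Which transcripts each probe reads was not analysed here.

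**Figure D5:**
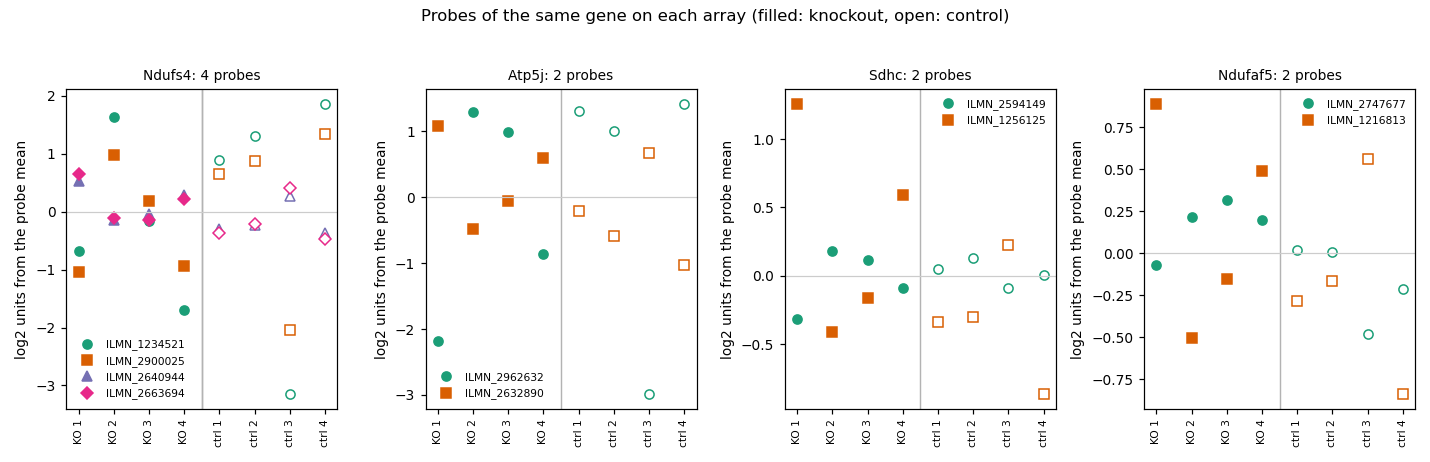
Probes of Ndufs4, Atp5j, Sdhc and Ndufaf5 on each array, as log2 signal minus the mean of the probe over 8 arrays, knockout filled and control open. On control 3 the probes of Ndufs4 and Atp5j point in opposite directions, with ILMN_1234521 and ILMN_2962632 far below 0.

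Related mitochondrial genes outside the prefixes, and those of glycolysis, were described by 1 probe a gene, the brightest kept one. The lists kept 24 assembly factor, 12 electron carrier, 14 tricarboxylic acid cycle, 65 mitochondrial ribosome, 9 biogenesis, 5 carrier and 11 glycolysis genes. In these lists 0 probes were called (against 0.53% of all kept probes), and 1 had an unadjusted p under 0.05 (against 6.31%). That probe was Mrps17 of the mitochondrial ribosome, at 11.79 ± 0.17 in knockout and 11.24 ± 0.22 in control arrays (limma adjusted p = 0.332). Of 24 kept assembly factors of the 5 complexes, 18 were above 0 and 6 below (median 0.12), with Bcs1l, the complex III assembly ATPase, at 0.58 and Surf1, a complex IV assembly factor, at -0.57. Of 12 electron carrier genes, 9 were above 0 (median 0.11). That list covers cytochromes c and c1, ubiquinone synthesis and handling, and the electron transfer flavoprotein and its dehydrogenase. Cycs, cytochrome c, was at 0.46. Cyc1, cytochrome c1 of complex III, was at -0.91 and was above background on 2 knockout and 3 control arrays. Tricarboxylic acid cycle genes had 8 above and 6 below 0 (median 0.09), mitochondrial ribosomal proteins 40 and 25 (median 0.09), regulators of mitochondrial biogenesis 7 and 2 (median 0.08), carriers and porins 1 and 4 (median -0.06) and glycolysis 4 and 7 (median -0.08). Nrf1, which encodes a factor whose motif is shown above, was at 8.89 ± 0.33 in knockout and 8.55 ± 0.48 in control arrays. Its highest values were those of the 3 low-detection arrays. Gabpa and Gabpb1, of GABP, had differences of 0.05 and -0.25. Ppargc1a, a coactivator of mitochondrial biogenesis, and Yy1 were above background on no array. Of the subunits encoded by mitochondrial DNA, 0 of 13 were analysed here.

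Cell type markers were read on the same arrays. Over all kept probes, 0.53% were called and 6.31% had an unadjusted p under 0.05. Acta2, the smooth muscle actin of activated stellate cells, was at 14.18 ± 0.04 in knockout and 14.14 ± 0.05 in control arrays, and Des, desmin, at 10.05 ± 0.36 and 10.17 ± 0.42. Of 15 stellate markers 11 were kept, with Col1a2 higher (1.84, limma adjusted p = 0.00478) and Reln lower (-1.61, limma adjusted p = 0.0289) in the knockout, while Lrat, Hand2 and Rgs5 were above background on no array. Of the macrophage markers with a probe, 10 of 10 were kept and 0 called (0 at an unadjusted p under 0.05), from Fcer1g at 14.12 in knockout and 14.17 in control arrays to C1qa at 5.74 and 5.96, which was above background on 2 knockout and 3 control arrays. The mean of the list ran from 10.83 to 11.89 in knockout and from 10.61 to 12.47 in control arrays. MHC class II markers, carried by antigen-presenting cells, had 3 of 5 called lower, with list means of 6.57 to 7.78 and 9.90 to 11.42. Hepatocyte markers had 4 of 12 kept, 0 called (1 at an unadjusted p under 0.05, Ahsg), with differences above 0 at all 4. List means were 5.93 to 7.39 and 5.43 to 6.17, and Alb and Apoa1 were above background on no array. Ahsg, whose groups lay apart, had a difference of 1.60 (limma adjusted p = 0.119). Endothelial markers had 4 of 8 kept and 0 called (2 at an unadjusted p under 0.05, Lyve1 and Stab2), with differences below 0 at all 4 and list means of 6.61 to 6.87 in knockout and 7.22 to 7.89 in control arrays, which did not overlap. Lyve1 had a difference of -1.54 (limma adjusted p = 0.355), and Stab2, whose groups lay apart, of -0.66 (limma adjusted p = 0.667). Mesothelial markers had 5 of 6 kept with 1 called, Pdpn (13.42 ± 0.17 and 11.92 ± 0.32, limma adjusted p = 0.00571), and 3 at an unadjusted p under 0.05. Their differences were above 0 at all 5, and the list means, 10.17 to 10.34 and 9.11 to 9.74, did not overlap. The part of the cell mixture in the values of the oxidative phosphorylation genes was not tested.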

How the data were processed

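Total RNA of 8 samples was hybridised to single-colour bead arrays. The authors deposited, for each probe and array, a bead signal intensity without normalisation or background subtraction, per the file headers. A detection p-value against negative-control beads is deposited beside it. The other deposited table holds quantile-normalised intensity from the authors, per the series' design text. GenomeStudio version 3 is named in the submitters' processing notes. A genome build is not given in the sources used here.

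The neqc function of limma 3.58.1 (R 4.3.3) corrected background, normalised by quantiles and gave log2 values with an offset of 16, which draws the folds of dim probes towards 1. Probes detected (p below 0.05) on 4 or more arrays were kept, 9433 of 25697. The groups were compared by lmFit and eBayes (intensity trend, two-sided, neither block nor covariate), with Benjamini-Hochberg adjustment over all kept probes. Intervals are 95% intervals of limma. The number of arrays limits the precision. The test was run on simulated data. Tables and figures used Python 3.11.15, pandas 2.3.3 and matplotlib 3.10.9.

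Motif searches used the RefSeq promoter table. Members, roles and gene lists were chosen with earlier results of these data known. Genes named with values were those whose groups did not overlap, in each complex the 4 probes with the smallest p, the 2 with the largest difference and the most and least variable probe, isoform pairs, Sdh subunits, genes whose probes had opposite signs, and assembly factors. Other members were named after their values were seen. Alternatives were the background correction, offset, normalisation, filter, eBayes settings, array weights, a replicate block, detected-probe counts as a covariate, and arrays left out.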

Additional observations from a re-analysis of the deposited data

Results flagged for a closer look

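In a group of 4 arrays, a value was listed when its gap to the nearest other value took up most of the range of the group, by Dixon's 95% limit. Chance lists about 1 in 20 groups, and 5 of 112 groups tested were listed. Ndufb7 was at 6.50 on knockout 2 against 4.69 to 4.98 on the other knockout arrays. Sdhd was at 11.37 on knockout 1 against 11.82 to 11.88. Cox8a was at 13.95 on control 4 against 14.00 to 14.01 on the other controls, a gap that is small because all its values are close. Atp5j at ILMN_2962632 was at 8.24 on control 3 against 12.24 to 12.65. The median of the complex V probes, each set to its mean over 8 arrays, was -0.23 on knockout 1 against 0.02 to 0.04. Knockout 1 and control 3 are low-detection arrays, and the part of that in these values was not tested.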

How the results depend on the processing

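The count of called members stayed at 0 under all alternatives except 2. Array weights called 38 of 93 (22 higher, 16 lower), where 38.5% of all kept probes were called and the estimation of the weights did not reach its convergence tolerance. Detected-probe counts as a covariate called 3. The median difference of all members ranged from -0.094 to 0.119, with the highest, 0.119, without knockout 1. By complex it ranged from -0.18 to 0.12 in I, -0.19 to 0.10 in II, -0.08 to 0.05 in III, -0.02 to 0.18 in IV and -0.07 to 0.15 in V, where 0.15 came with median scaling. Median scaling moved the median of all kept probes from 0.03 to -0.10. The number of members whose groups lay apart was 4 with median scaling (7.39% of all kept probes), 5 of 110 without the filter (4.12% of all probes), 19 without the 3 low-detection arrays (30.2%), and 2 to 10 with each array left out, with 6 without knockout 1 (7.23%), 5 without knockout 2 (7.56%), 3 without control 2 (5.65%) and 10 without control 3 (20.2%). Without control 3, 28 members (30.1%, against 23.8% of all kept probes) had an unadjusted p under 0.05. Leaving out each array in turn gave medians from -0.092 to 0.119. Of 50 probes named by rule, 32 kept their sign under every alternative that gave them a value, which was 21 alternatives for 36 of the 50 and 20 for the other 14. With the replicate number as a block, 0 members were called, 2 had groups that lay apart and the median was -0.03. After the group mean of each probe was subtracted, the correlations of same-numbered arrays were -0.66, 0.60, -0.75 and -0.82. By that measure 0 of 4 knockout arrays correlated best with their own number, and the numbers were not taken as pairs. The part of the 3 low-detection arrays in these correlations was not tested. A chip block was not run.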
